A study of Mus musculus with 12 samples.

Results

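The genes described here encode transcription factors that set and maintain the identity of sensory neurons, measured in sorted mouse neurons: Runx1, Runx3, Cbfb, Isl1, Isl2, Pou4f1, Pou4f2, Tlx3, Prdm12 and Klf7. They were picked by symbol, and all 10 were found among the 41388 genes of the deposited count tables. Of these 10, 9 had enough reads to be tested and Runx3 did not. The question put to them was whether they differ between dorsal root ganglia of spinal levels L3 to L5 (L345) and of levels L6 and S1 (L6S1).

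Sensory neurons of the dorsal root ganglion come in classes that sense heat, cold, touch, itch, noxious stimuli or limb position, and each class is specified by a combination of transcription factors. Pou4f1 (Brn3a) and Isl1 act together in nearly all of these neurons, where they end the early neurogenic programme and switch on subtype genes. Runx1 then acts in nociceptors, the small neurons that detect damaging stimuli, and favours the non-peptidergic class that expresses Ret, while Runx3 acts in proprioceptors, which report limb position. Both Runx proteins bind DNA as a pair with the subunit encoded by Cbfb.

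All 12 libraries came from C57BL/6 mice aged 3 months. The mice carried Scn10a<tm2(cre)Jnw>, which puts Cre recombinase under the promoter of the NaV1.8 sodium channel, and RetFloxedEGFP, a floxed RET9 allele knocked into the Ret locus that gives way to EGFP once Cre has acted. EGFP-positive neurons were isolated by flow cytometry, so each library holds neurons that used the Ret locus and had expressed Cre, and both levels carried the same alleles. The 12 libraries make 4 groups of 3, lettered A, B and C except in female L345, whose letters are B, C and D. Every library was a pool of 2 to 8 mice (for male L345 C the labels give both 5 and 3), and the labels do not say whether pools of both levels shared mice. Cre acts only where Scn10a has been active, so neurons outside that lineage lie outside the sort, and the Ret locus is described as heterozygous. Libraries B and C of female L6S1, C of male L6S1 and D of female L345 were deposited later than the other 8, and a genotype field of these 4 names only 1 of the 2 alleles although another label names both.

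Total counts per library ran from 16176436 to 26694404, so that 3 counts, the limit that a count of 0 allows, correspond to 0.112 to 0.185 CPM (counts scaled to library size). The sort loci were both well covered: Scn10a reached 573 ± 96.0 CPM in L345 and 429 ± 66.5 CPM in L6S1 (SD, n = 6), and Ret 176 ± 27.5 and 165 ± 33.6 CPM. The 12 markers of large-diameter neurons summed to 656 to 1064 CPM in L345 and 342 to 943 CPM in L6S1. In L345 they ran from 1.27 CPM for Pvalb, a calcium buffer of proprioceptors, to 577 CPM for Nefm, a neurofilament gene. CPM of genes are scaled by TMM, a correction for differences in library composition, and a gene is called at an adjusted p under 0.05. In pools of cells, fewer cells of a type and less RNA per cell cannot be told apart.

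Among the regulatory sequences of the 10 genes, a pair of RUNX motifs set the 2 Runx genes apart, and the pairs are printed because RUNX proteins bind this hexamer. The motif searched was TGTGGT or TGCGGT on both strands (ACCACA or ACCGCA when read on the other strand), in the RefSeq windows of 300 bases (250 before to 50 after each start, build GRCm38.p6). Capitals mark the motif, and each sequence is written 5′ to 3′ on the strand of its gene.
Runx1, chr16:92826025-92826054, minus strand: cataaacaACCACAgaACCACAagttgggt
Runx3, chr4:135120503-135120532, plus strand: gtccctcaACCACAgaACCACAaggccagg
The Runx1 pair begins 28 bases after the distal start, in the 5′ untranslated region, and the Runx3 pair begins 134 bases before its distal start. Such a pair of 2 motifs in the same orientation with 2 bases between them (ACCACANNACCACA, or its reverse complement) was present in 7 of 32851 windows, or 0.0213%, and Runx1 and Runx3 were 2 of those 7 genes. Single motifs were not rare: 3 of the 12 windows of the 10 genes held at least 1 (25%), against 22.4% of all windows. The third was a TGCGGT 244 bases before the start of Tlx3. A match describes these letters only, and binding was not measured.

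Runx1 has 2 promoters, and its upstream stretches are shown because it was the member that differed between the levels. They cover the annotated upstream bases that lie outside the exons of the deposited gene model, with every CG dinucleotide in capitals.
Runx1 distal, chr16:92826150-92826324, minus strand: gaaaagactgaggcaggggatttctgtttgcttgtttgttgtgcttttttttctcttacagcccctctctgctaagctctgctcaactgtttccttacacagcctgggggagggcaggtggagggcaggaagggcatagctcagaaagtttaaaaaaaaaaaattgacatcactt
Runx1 proximal, chr16:92697330-92697579, minus strand: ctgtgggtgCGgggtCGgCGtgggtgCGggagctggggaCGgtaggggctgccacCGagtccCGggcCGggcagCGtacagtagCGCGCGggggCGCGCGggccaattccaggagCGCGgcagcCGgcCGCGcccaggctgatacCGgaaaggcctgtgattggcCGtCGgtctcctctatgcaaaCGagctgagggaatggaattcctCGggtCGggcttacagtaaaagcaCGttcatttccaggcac
The distal stretch of 175 bases holds 0 CG dinucleotides at 45.1% G and C, and the proximal stretch of 250 bases holds 27 at 67.6%. The bases left out next to the distal start lie in an exon of the deposited gene and do hold CG. The proximal stretch was not cut, so the 2 stretches cover unlike parts of their promoters. The deposited counts are per gene, so transcripts from the 2 promoters were counted together.

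Per kilobase of gene length, the order of the 10 genes was led by the pan-sensory factors. Pou4f1 stood first at 159.6 ± 24.4 CPM per kb (SD, n = 12), above Isl1 in 12 of 12 libraries with no overlap of their ranges. Isl1 (70.7 ± 6.34 CPM per kb), Klf7 (63.2 ± 10.4), Cbfb (55.2 ± 12.0) and Isl2 (54.2 ± 11.3) followed, and neighbours among these 4 overlapped. A gap with no overlap separated them from Prdm12 at 14.01 ± 2.87 CPM per kb. Runx1 at 8.60 ± 2.74 CPM per kb lay below Prdm12 in 12 of 12 libraries, although their ranges across libraries overlapped. Pou4f2 at 5.60 ± 0.914 CPM per kb lay below Runx1 in 11 of 12 libraries, and Tlx3 at 1.78 ± 0.609 CPM per kb below all of these with no overlap. Runx3 came last at 0.0209 ± 0.0317 CPM per kb. Among the 15281 tested genes these levels ranged from the 97.4th percentile for Pou4f1 through the 68.7th for Runx1 to the 39.0th for Tlx3.

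**Figure D1:**
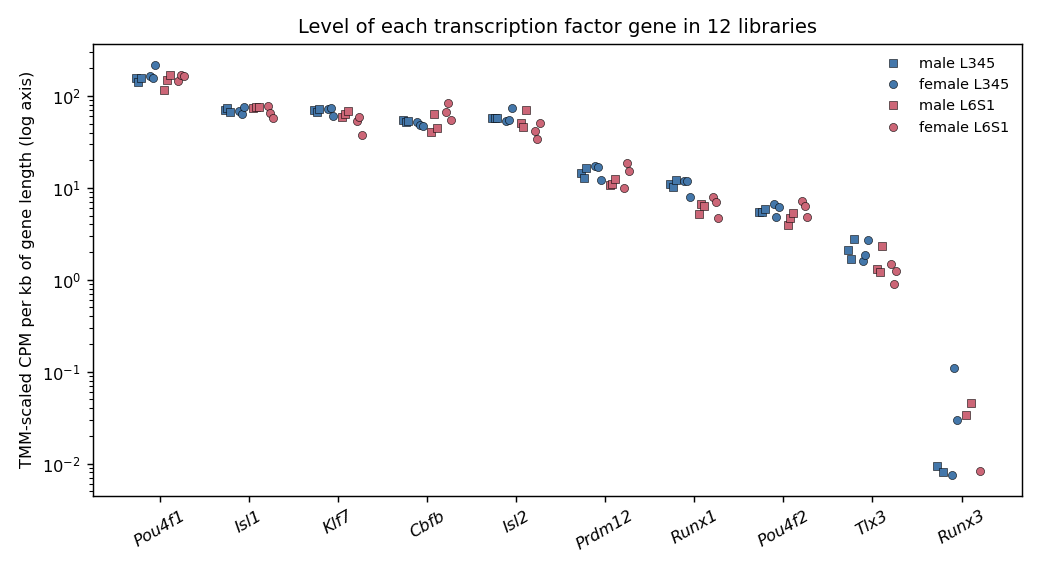
Level of each of the 10 genes in each of 12 libraries, as TMM-scaled CPM per kb of deposited gene length on a log axis; squares are male, circles female, blue L345 and red L6S1. Pou4f1 lies above every other gene and Runx3 far below, and the 4 libraries with 0 Runx3 counts are not drawn.

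Between the levels, 1 of the 9 tested genes changed. Runx1 fell in L6S1 to 0.580 of its L345 level, while the other 8 tested genes did not pass the test in either direction. Over all 15281 tested genes 2.33% were called, 1.45% higher and 0.877% lower, by edgeR's quasi-likelihood test with Benjamini-Hochberg adjustment. The median log2 fold change of the 9 genes was -0.21 and that of all tested genes -0.06. At an unadjusted p under 0.05 the genes were Runx1, Tlx3 and Klf7 (3 of 9), against 26.6% of all tested genes. These genes were chosen with results of the same libraries known, so the counts describe them and support nothing further.

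Runx1 (ENSMUSG00000022952, chromosome 16, 92601466 to 92826149 on GRCm38.p2, minus strand, 9 exon blocks in the deposited gene model) encodes the Runt-domain factor of nociceptors. In male L345 libraries A, B and C it measured 129, 122 and 145 CPM, and in male L6S1 60.8, 79.4 and 75.9 CPM. In female L345 libraries B, C and D it measured 142, 139 and 94.7 CPM, and in female L6S1 A, B and C 94.2, 82.7 and 55.4 CPM. All 6 L6S1 libraries lay below all 6 L345 libraries, but the nearest pair, female L345 D and female L6S1 A, were almost level. Of all tested genes 1.22% showed such a separation with L6S1 lower, and 2.02% with L6S1 higher. Counts of Runx1 ran from 1321 to 3783 per library, so counting error is small beside the spread between pools. The mean was 128.6 ± 18.7 CPM in L345 and 74.7 ± 14.4 CPM in L6S1 (SD, n = 6 each). The log2 fold change was -0.78 ± 0.15 (SE; 95% interval -1.11 to -0.46), with an adjusted p of 0.0191 by edgeR's quasi-likelihood test.

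**Figure D2:**
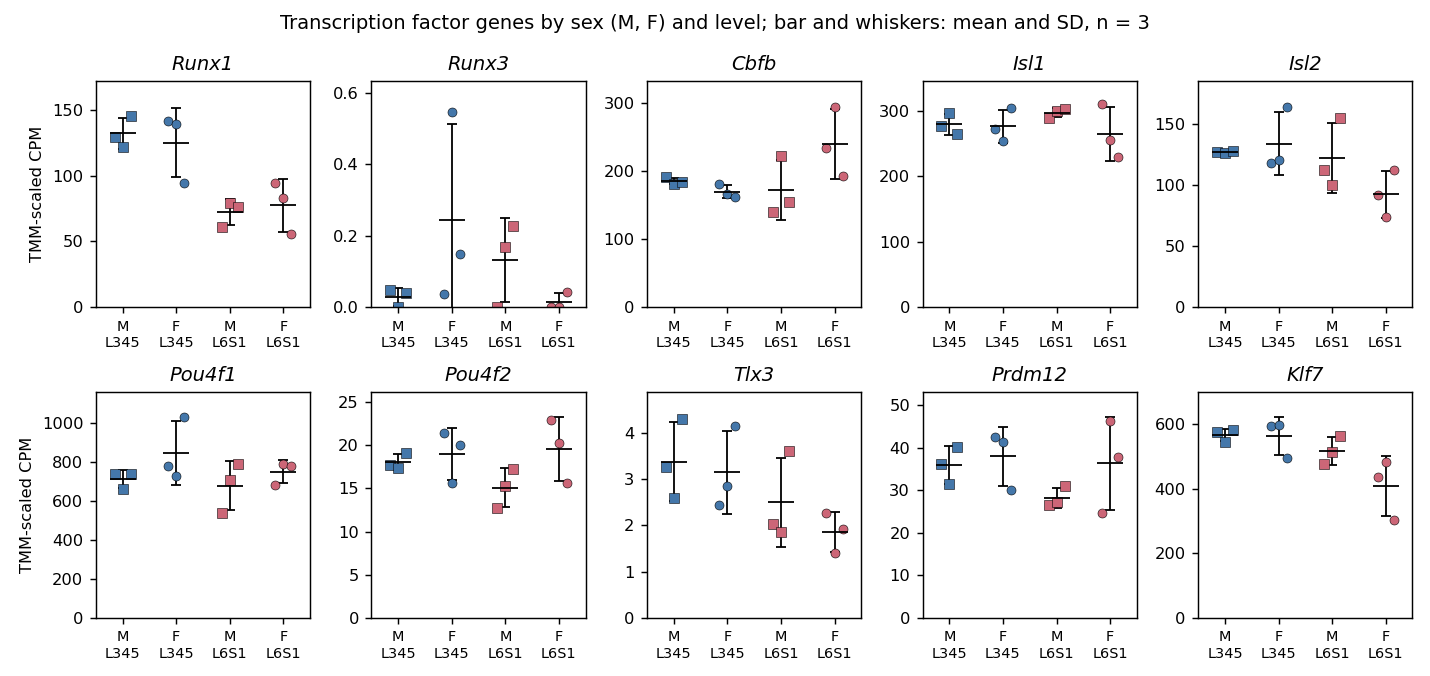
TMM-scaled CPM of each gene in each library by sex (M, F) and level; bars and whiskers give the mean and SD of 3 libraries, and every axis starts at 0. In Runx1 the L6S1 libraries sit at 55.4 to 94.2 CPM and the L345 libraries at 94.7 to 145 CPM, whereas the levels overlap in the other 9 panels.

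The Runx1 difference had the same direction in both sexes, and neither sex alone carried it past the threshold. In males the log2 fold change was -0.88 ± 0.21, with an adjusted p of 0.194 by edgeR. The female libraries gave -0.69 ± 0.21, with an edgeR adjusted p of 0.129. No member was called by edgeR within a sex, where 0.222% of all tested genes were called in males and 0.36% in females. At an unadjusted p under 0.05 there was 1 member of 9 in males (Runx1), against 8.83% of all genes. In females there were 5 (Runx1, Cbfb, Isl2, Tlx3 and Klf7), against 24% of all genes. The test of the difference between these effects gave 0.18 ± 0.30 (edgeR adjusted p = 0.952). DESeq2 and limma-voom both called Runx1 in males (adjusted p = 0.0273 and 0.000720) and neither did so in females. Of all 15281 tested genes DESeq2 called 109 in males and 750 in females, and limma-voom 1864 and 52. The tools thus differed in how many genes they called within each sex.

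Whether Runx1 passed the threshold depended on single libraries, while its direction did not. It was called in 7 of the 12 edgeR fits that each left out 1 library, with log2 fold changes of -0.87 to -0.68 and adjusted p of 0.00160 to 0.0684. The call was lost without male L345 A (adjusted p = 0.0560), male L345 C (0.0684), female L345 B (0.0671), female L345 C (0.0654) or male L6S1 A (0.0646). In the same order, these edgeR fits called 90, 84, 80, 83 and 112 genes over all, against 356 with all 12 libraries. With a term for the deposit the log2 fold change was -0.68 and the edgeR adjusted p 0.0562, and in the 8 libraries of the first deposit alone they were -0.76 and 0.00421. The second deposit held 1 L345 library, female D at 94.7 CPM, against 3 L6S1 libraries at 55.4 to 82.7 CPM, so no test was made within it.

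**Figure D3:**
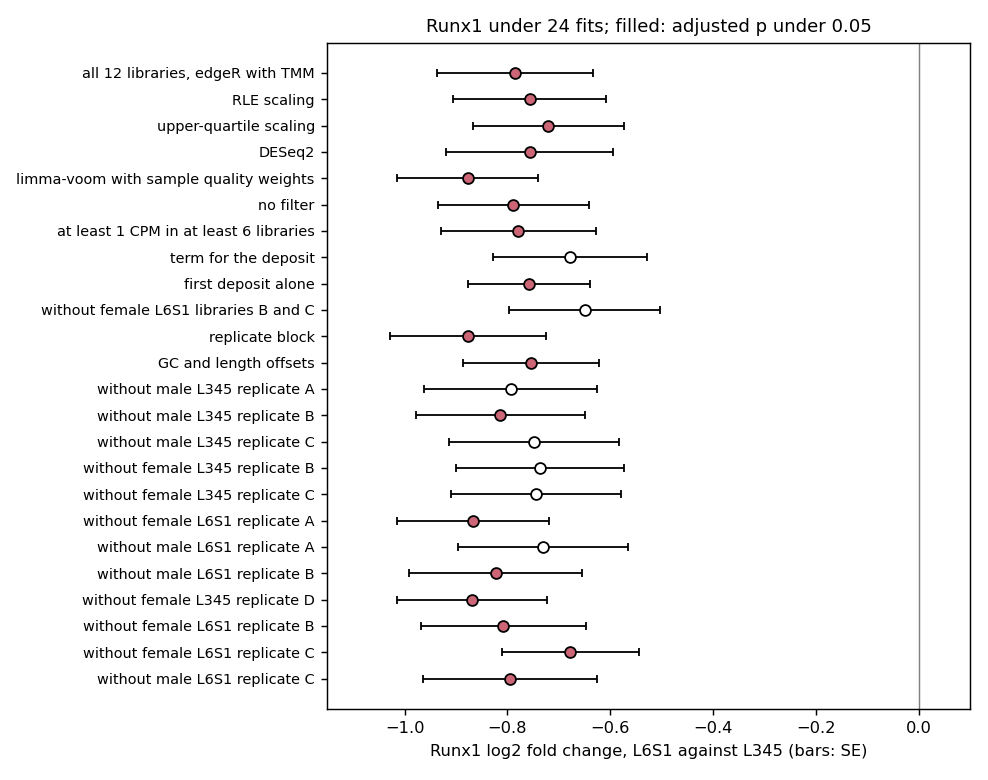
Log2 fold change of Runx1, L6S1 against L345, under 24 fits, with bars for 1 SE; filled points have an adjusted p under 0.05. All 24 points lie between -0.88 and -0.65, and 17 are filled.

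Several other measures moved with the level and stand beside the Runx1 result. Runx1 has a deposited length of 11827 bases, which 3.30% of tested genes reach, and across the 15281 genes log2 fold change and length had a Spearman rho of -0.36 (genes are not independent replicates). The 505 tested genes at least this long had a median log2 fold change of -0.34, 2.97% of them were called lower, and 10 of them, Runx1 included, had a log2 fold change at or below that of Runx1. With offsets for GC content and length fitted to each library, Runx1 gave -0.75 ± 0.13 (edgeR adjusted p = 0.00918). The length in these offsets was the median over a gene's annotated transcripts, not the deposited length used above.

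Summed markers of some other cell types were also higher in L6S1. Summed over 14 macrophage and myeloid markers, CPM ran from 6.06 to 7.61 in L345 and from 10.9 to 244 in L6S1, the highest value being female L6S1 C. Of these 14, 8 were tested and 3 rose: Cd74 and H2-Aa, which serve antigen presentation, and C1qb, a complement subunit. All 8 had positive log2 fold changes, but the filter can keep a low gene through its L6S1 libraries alone, which favours that sign. Fcer1g, for example, reached at most 0.377 CPM in L345 and 3.65 CPM in L6S1. Cd74 stood at 137 CPM in female L6S1 C, but at 1.32 CPM in male L6S1 C, within its L345 range. C1qa was at 0 in every L345 library and at most 0.419 CPM in L6S1. Csf1r, with means of 0.266 CPM in L345 and 1.08 CPM in L6S1, was not called. The 14 T and NK cell markers summed to 5.55 to 8.32 CPM in L345 and 10.3 to 19.2 CPM in L6S1. Of these 3 were tested and Trac rose, Cd8a was at 0 in every library, and Cd3e, a defining T cell marker, was at 0 in every L345 library and at most 0.126 CPM in L6S1. The 10 fibroblast markers summed to 161 to 196 CPM in L345 and 255 to 471 CPM in L6S1, and 1 of the 7 tested rose. This was Dcn, from a mean of 64.3 to 213 CPM (log2 fold change 1.67), so the sum leans on 1 gene. Among those not called, Serpinf1 had means of 104 and 115 CPM and Col1a2 of 6.96 and 7.87 CPM. Pdgfra, the 1 with a negative log2 fold change, had means of 1.73 and 1.44 CPM. Satellite glia and Schwann cell markers overlapped, at 3911 to 4523 and 4062 to 4964 CPM, with 0 of 16 tested genes called. None of the 7 tested endothelial and pericyte markers and neither of the 2 tested red blood cell markers was called. Without female L6S1 B and C the Runx1 log2 fold change was -0.65 (edgeR adjusted p = 0.0529). The part of cells that carry these markers in the Runx1 result was not tested.

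Runx3 (ENSMUSG00000070691, chromosome 4, 135120652 to 135177990, plus strand), the Runx gene of proprioceptors, was close to undetected. Its 12 libraries held 32 counts in all, of which 14 came from female L345 C. Male L345 A, B and C had 1, 0 and 1 counts, and male L6S1 0, 4 and 6. Female L345 B, C and D had 1, 14 and 4 counts, and female L6S1 0, 0 and 1. Counts of 0 in 4 libraries allow up to 0.116 (male L6S1 A) to 0.185 CPM (female L6S1 A), and a difference between levels was not detectable at this depth. Runx2, the third gene of the family, which acts in bone, was tested and reached 6.48 CPM in L345 and 5.69 CPM in L6S1, and its log2 fold change was -0.19 ± 0.18 (adjusted p = 0.501 by edgeR).

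Cbfb (ENSMUSG00000031885, chromosome 8, 105170674 to 105217989) encodes the shared partner of Runx proteins. In male L345 it measured 191, 182 and 184 CPM, and in male L6S1 140.4, 223 and 155 CPM. In female L345 it measured 181, 166 and 162 CPM, and in female L6S1 234, 294 and 192 CPM. The 3 female L6S1 libraries lay above every L345 library, while the male L6S1 libraries fell on both sides. Across sexes the log2 fold change was 0.20 ± 0.14 (95% interval -0.09 to 0.49, edgeR adjusted p = 0.356). In females it was 0.50 ± 0.19 and in males -0.11 ± 0.19, with edgeR adjusted p-values of 0.153 and 0.875. The difference between these effects was 0.61 ± 0.27, with an unadjusted p of 0.0425 and an adjusted p of 0.871 by edgeR. No gene of the 15281 was called for that difference (0%), and 4.67% had an unadjusted p under 0.05.

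The ratio of the shared partner to the factor separated the levels. Per kilobase, Cbfb exceeded Runx1 by 4.07 to 5.82 times in L345 (median 4.68) and by 6.92 to 12.1 times in L6S1 (median 8.99). The 2 ranges did not overlap. The ratio is a description made from the Cbfb and Runx1 values already given, and its highest value, in female L6S1 B, is that of the library with the most Cbfb (294 CPM). Ratios of Runx1 to Pou4f1, Isl1, Klf7 and Prdm12 were lower in L6S1 by their medians, but each overlapped between the levels. For Pou4f1 the median was 0.073 in L345 and 0.043 in L6S1.

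Isl1 and Isl2 encode LIM homeodomain proteins. Isl1 (ENSMUSG00000042258, chromosome 13, 116298281 to 116309689) was the steadiest of the 10, with a coefficient of variation of 8.96% over 12 libraries. In male L345 it measured 278, 297 and 265 CPM, and in male L6S1 289.9, 300.5 and 303 CPM. Female L345 libraries gave 272, 254 and 304 CPM, and female L6S1 310.4, 256 and 229 CPM. The levels overlapped fully, and the log2 fold change of 0.01 ± 0.11 had a 95% interval of -0.21 to 0.24 (edgeR adjusted p = 0.939).

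Isl2 (ENSMUSG00000032318, chromosome 9, 55538672 to 55546180) acts in postmitotic neurons and was more variable. Male L345 libraries agreed closely at 127, 126 and 127 CPM, and male L6S1 gave 112, 99.9 and 155 CPM. In female L345 it measured 118, 120.3 and 164 CPM, and in female L6S1 91.6, 73.8 and 112 CPM. Of 6 L6S1 libraries 5 were under the mean of L345 for that sex, with male L6S1 C above it. The log2 fold change was -0.29 ± 0.14 (95% interval -0.60 to 0.01, edgeR adjusted p = 0.208), and in females alone -0.53 ± 0.21 (edgeR adjusted p = 0.151). Isl1 exceeded Isl2 per kilobase by 1.03 to 1.30 times in L345 and 1.08 to 1.93 times in L6S1, with overlap. An antisense gene, Gm17226, overlaps Isl2 and had 25 to 49 counts per library against 1501 to 4413 for Isl2, and without a stated strand setting their reads cannot be told apart.

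LIM homeodomain proteins work through a bridging cofactor, and the 10 cofactor genes tested showed 0 calls in either direction, with a median log2 fold change of -0.10. Ldb1 and Ldb2, which encode that bridge, gave -0.07 ± 0.15 and -0.03 ± 0.11. The smallest adjusted p belonged to Ssbp2, whose product stabilises the bridge, at 0.37 ± 0.11 (edgeR adjusted p = 0.0690).

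Pou4f1 and Pou4f2 encode POU homeodomain factors. Pou4f1 (ENSMUSG00000048349, chromosome 14, 104461676 to 104467999), the most abundant of the 10 per kilobase, measured 736, 659 and 736 CPM in male L345, and 539, 704 and 790.1 CPM in male L6S1. In female L345 it measured 778, 727 and 1029 CPM, and in female L6S1 681, 788 and 779 CPM. Female L345 D was the highest of the 12, and the levels overlapped. The log2 fold change was -0.12 ± 0.12 (95% interval -0.39 to 0.15, edgeR adjusted p = 0.544).

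Pou4f2 (ENSMUSG00000031688, chromosome 8, 78433010 to 78436645), best known from retinal ganglion cells, was far lower per kilobase. Its values were 17.7, 17.4 and 19.1 CPM in male L345, and 12.7, 15.2 and 17.3 CPM in male L6S1. In females it was at 21.4, 15.6 and 20.0 CPM in L345, and 22.9, 20.3 and 15.6 CPM in L6S1. The log2 fold change was -0.11 ± 0.14 (95% interval -0.41 to 0.19, edgeR adjusted p = 0.636). Pou4f1 exceeded Pou4f2 per kilobase by 24.9 to 35.3 times in L345 and 20.3 to 34.3 times in L6S1, with overlap. The remaining gene of the family, Pou4f3, was at 25.3 CPM in L345 and 35.2 CPM in L6S1, and its log2 fold change was 0.48 ± 0.16 (adjusted p = 0.0990 by edgeR).

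Tlx3 (ENSMUSG00000040610, chromosome 11, 33200752 to 33203589) encodes a homeodomain factor that acts with Runx1 in nociceptor development and selects the glutamatergic fate in the dorsal horn. It was the lowest of the tested genes, with 32 to 112 counts per library. In male L345 it measured 3.26, 2.59 and 4.30 CPM, and in male L6S1 2.02, 1.86 and 3.61 CPM. Female L345 libraries gave 2.44, 2.85 and 4.16 CPM, and female L6S1 2.26, 1.39 and 1.93 CPM. Of 6 L6S1 libraries 5 were under the mean of L345 for that sex, and male L6S1 C lay among the L345 values. The log2 fold change of -0.60 ± 0.24 (95% interval -1.11 to -0.10) did not pass the test (edgeR adjusted p = 0.134). With offsets for GC content and length the log2 fold change of Tlx3 was -0.11 ± 0.16, so its size depended on that setting.

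Prdm12 (ENSMUSG00000079466, chromosome 2, 31640037 to 31655795) encodes a PR-domain regulator needed for the nociceptor lineage, whose loss in people causes congenital insensitivity to pain. Male L345 libraries gave 36.3, 31.4 and 40.2 CPM, and male L6S1 libraries 26.5, 27.2 and 30.9 CPM. In females the values were 42.5, 41.3 and 30.0 CPM in L345, and 24.7, 46.3 and 37.9 CPM in L6S1. The male groups did not overlap, and the female groups did. Over both sexes the log2 fold change was -0.21 ± 0.16 (95% interval -0.55 to 0.13, edgeR adjusted p = 0.406). In the 8 libraries of the first deposit it was -0.60 ± 0.13 and passed the test (edgeR adjusted p = 0.0256). Without female L6S1 B and C alone, Prdm12 gave -0.49 ± 0.15 and did not pass (edgeR adjusted p = 0.160). Ehmt2 and Ehmt1, the G9a-family histone methyltransferases with which Prdm12 is known to act, gave -0.27 ± 0.21 and -0.16 ± 0.13, with 0 of 2 called. An antisense gene, Gm13425, overlaps Prdm12 and had 12 to 38 counts per library against 405 to 1134 for Prdm12.

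Klf7 (ENSMUSG00000025959, chromosome 1, 64029447 to 64122282) encodes a Krüppel-like zinc-finger factor. In male L345 it measured 575, 546 and 582 CPM, and in male L6S1 477, 513 and 563 CPM. In female L345 it measured 594, 599 and 494 CPM, and in female L6S1 437, 484 and 303 CPM. All 6 L6S1 libraries were under the mean of L345 for that sex, yet the levels overlapped. The log2 fold change was -0.30 ± 0.12 (95% interval -0.56 to -0.03, edgeR adjusted p = 0.150). Limma-voom with sample quality weights called Klf7 at -0.35 (adjusted p = 0.0270), and edgeR and DESeq2 on all 12 libraries did not. Limma-voom called 3268 of all 15281 tested genes for level, 1766 of them lower, against 356 by edgeR and 1519 by DESeq2. Of 12 other tested Krüppel-like factors 0 were called, with a median log2 fold change of -0.22.

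**Figure D4:**
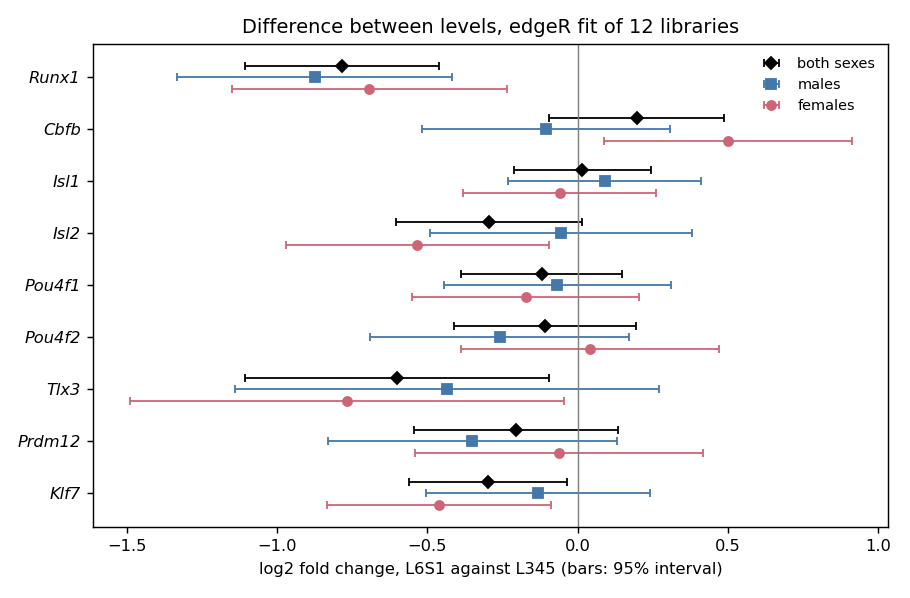
Log2 fold change of the 9 tested genes, L6S1 against L345, for both sexes together, males and females, with bars for the 95% interval. The interval over both sexes excludes 0 for Runx1, Tlx3 and Klf7, and of these Runx1 alone passed adjustment over all genes.

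No gene of the 9 was called for sex (0 also at an unadjusted p under 0.05, and 0 by DESeq2 and by limma-voom), against 0.0589% of all genes called by edgeR and 5.96% at an unadjusted p under 0.05. For the interaction of sex and level 0 of 9 were called by edgeR, DESeq2 or limma-voom, and Cbfb was the 1 gene with an unadjusted p under 0.05 in each of them. The intervals remain wide, however: for Tlx3 the interaction ran from -1.34 to 0.68.

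Across the 12 libraries, the genes whose log2 CPM most resembled that of Runx1 were sought among 11666 genes over 2 CPM. Pak2, a p21-activated kinase, led with r = 0.988 (Spearman rho 0.979), followed by Med13l, a Mediator subunit, at 0.972, Nrip1, a nuclear receptor corepressor, at 0.969, Prkce, a protein kinase C, at 0.966 and Piezo2, the touch channel, at 0.965. With the mean of each group removed the leading genes were Dock3 (0.983), 2510009E07Rik (0.973), Pak2 (0.969), Onecut2 (0.963) and Ino80d (0.962). All 9 of these genes are longer than the median of 3924 bases of the candidates, from 2510009E07Rik at 5164 bases to Ino80d at 17713 bases. The points share libraries, depth and the composition of each pool, so these values are descriptions. Among the other members, Klf7 was closest, at r = 0.758, and at 0.868 with group means removed. Cbfb was at r = -0.01 and at 0.590 with group means removed, and Isl1 at 0.040 and 0.239.

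Genes known from mouse mutants to need Runx1 in nociceptors were counted next. Of 18 such genes tested, 0 rose and 0 fell, 10 had positive and 8 negative log2 fold changes, and the median was 0.03 against -0.06 for all tested genes. Every Mrgpra and Mrgprb gene of the list was among the 10 positive ones, so the balance of signs rests in part on these receptors. Some of them were low: Mrgpra4 and Mrgpra1 had means of 0.337 and 0.865 CPM in L345. The list does not separate a need for Runx1 in development from one in adult neurons. Its counts therefore do not show whether targets of Runx1 followed it. Mrgprd, the receptor that marks the largest non-peptidergic class, was at 556 CPM in L345 and 472 CPM in L6S1 (-0.27 ± 0.13, edgeR adjusted p = 0.206). The extremes were Mrgprx1, an itch receptor, at -0.67 ± 0.21 and Mrgpra3, the chloroquine receptor, at 0.67 ± 0.26. Scn11a, the sodium channel NaV1.9, gave -0.45 ± 0.15 (edgeR adjusted p = 0.0935) and Trpm8, the cold and menthol channel, 0.52 ± 0.18 (0.0980). P2rx3, an ATP-gated channel, gave 0.12 ± 0.14, and Ret, itself on this list and used for the sort, -0.09 ± 0.15.

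A second list held genes that Runx1 is known to hold down. Of its 4 genes 3 were tested, 1 with a positive and 2 with negative log2 fold changes, and the median was -0.60. The 1 gene that fell was Oprd1, the delta opioid receptor. Its place on the list is the least certain, but no value here bears on that, and it was kept in the counts. Oprd1 went from 1.74 to 0.797 CPM (-1.18 ± 0.25, edgeR adjusted p = 0.0309), which is a low level. Calca, the precursor of the peptide CGRP, gave 0.40 ± 0.13 (edgeR adjusted p = 0.0956) and Oprm1, the mu opioid receptor, -0.60 ± 0.25 (0.155), while Met was too low to test.

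Runt-family genes and the Groucho and ETO corepressors through which Runx proteins repress gave 0 calls among 10 tested, with a median of -0.22. Cbfa2t3 had the lowest value at -0.90 ± 0.25 (edgeR adjusted p = 0.0672) and Tle6 the highest at 0.66 ± 0.18 (0.0647).

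Among 32 other transcription factors of sensory neurons present in the tables, 21 were tested, 0 rose and 1 fell, with a median of -0.41. Casz1, a zinc-finger factor, fell from 75.1 ± 12.2 to 47.6 ± 7.56 CPM (SD, n = 6), by 0.66 ± 0.14 on the log2 scale (edgeR adjusted p = 0.0327). Its L345 libraries lay at 60.5 to 90.5 CPM and its L6S1 libraries at 35.5 to 58.5 CPM, with no overlap. Casz1 is a long gene as well, at 12224 bases. Neurog1 and Neurog2, genes of early neurogenesis, were too low to test, and Tlx1 and Mafa were at 0 in all 12 libraries.

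Markers of the classes that these factors specify were counted as well. Of 10 peptidergic nociceptor markers 4 rose and 0 fell, with a median log2 fold change of 0.50. They were Gal (1.14 ± 0.17, edgeR adjusted p = 0.00374) and Cartpt (0.75 ± 0.18), which encode peptides, Tac1 (0.58 ± 0.12), the substance P precursor, and Trpv1 (0.52 ± 0.12), the heat and capsaicin channel. Of 10 non-peptidergic markers 0 rose and 1 fell, with a median of -0.31: Lpar3, a lysophosphatidic acid receptor, went from 71.0 to 46.1 CPM (-0.62 ± 0.14, edgeR adjusted p = 0.0355). Summed, the non-peptidergic markers overlapped, at 2189 to 3166 CPM in L345 and 2110 to 2956 CPM in L6S1. Of 6 markers of C low-threshold mechanoreceptors, a class of touch neurons, 0 rose and Piezo2 fell, from 224 to 132 CPM (-0.76 ± 0.16, edgeR adjusted p = 0.0314). Of the 6, 3 had positive and 3 negative log2 fold changes, with a median of -0.06. Th went the other way, from 629 to 892 CPM, and was not called (0.50 ± 0.16, edgeR adjusted p = 0.0838). Their sums overlapped, at 1298 to 1831 CPM in L345 and 1566 to 1938 CPM in L6S1. Of 12 markers of large-diameter neurons 0 were called, with a median of -0.10.

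**Figure D5:**
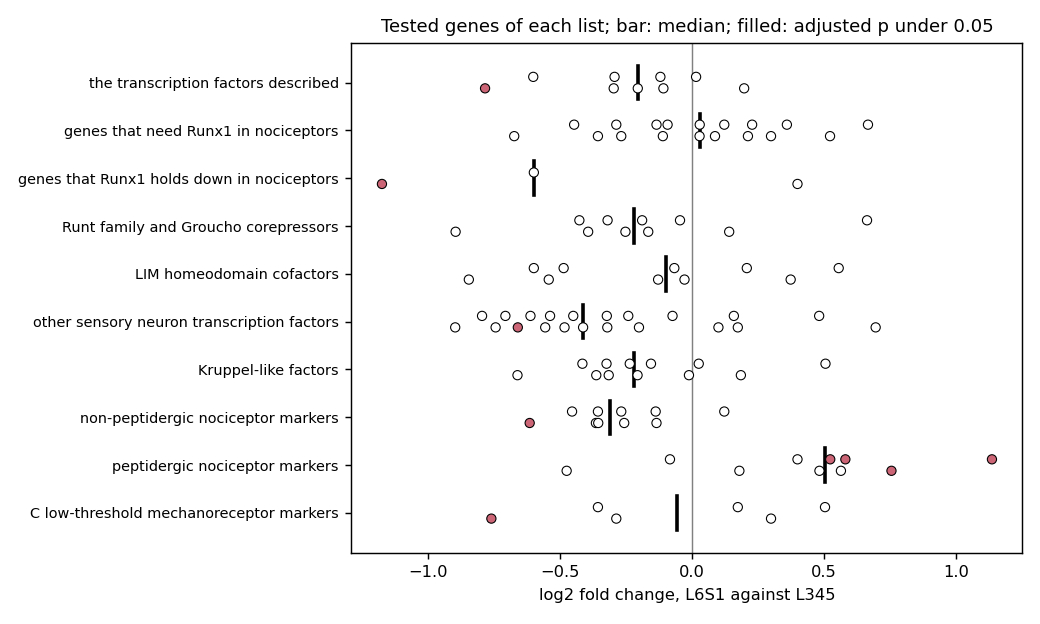
Log2 fold change, L6S1 against L345, of the tested genes of each list; each point is 1 gene, filled points have an adjusted p under 0.05, and the black bar is the median. The 18 genes listed as needing Runx1 spread on both sides of 0 around 0.03, while the peptidergic markers lie mostly to the right around 0.50.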

How the data were processed

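The authors deposited 1 table per library with whole-number read counts, CPM and RPKM for each Ensembl gene. The submitters' processing notes name Subread, featureCounts 1.4.5 and build GRCm38.p2. For the Subread release, the annotation and the strand setting, nothing is stated in the labels or headers. The deposited CPM and RPKM follow from the counts within a tolerance of 1e-06 and were not tested. Libraries of 1 group differed by more than sampling noise (chi-square per degree of freedom 9.87 to 129), so each counts once. Replicates are separate pools of mice.

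Counts were fitted with edgeR 4.0.16 in R 4.3.3 (TMM, filterByExpr by group, robust quasi-likelihood fit of 4 group means, 15281 genes, 8 residual degrees of freedom, common biological coefficient of variation 0.239). Level is L6S1 minus L345 with the sexes weighted equally. Adjusted p-values are Benjamini-Hochberg over all tested genes. CPM per kb divides TMM-scaled CPM by deposited length. Alternatives used DESeq2 1.42.0 and limma 3.58.1, and the code was tested on simulated counts. A GENCODE M21 annotation gave symbols for 97.3% of genes, and GC content and length for 99.4% of tested genes. For the offsets both were medians over the transcripts of a gene. RefSeq windows matched all 10 genes.

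The members and lists were chosen with earlier results of these data known. The rule named the 10 genes, up to 4 called genes per list, Ret, Scn10a and the 5 genes most like a called member; Pvalb, Nefm, Runx2, Pou4f3 and the other genes that did not pass a test were chosen after their values were seen, as were the motif pair and the Runx1 upstream stretches.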

Additional observations from a re-analysis of the deposited data

Results flagged for a closer look

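In each level, the highest or lowest of the 6 libraries was compared with the others for each of the 10 genes, by its gap to the nearest library over the range of the group. Of 20 such groups 3 held a library beyond the critical ratio of 0.625, which chance passes in about 1 group in 20. Isl2 was at 163.8 CPM in female L345 D, with the next L345 library at 127 CPM, a ratio of 0.789. Pou4f1 was at 1028.8 CPM in the same library, with the next at 778 CPM, a ratio of 0.679. Runx3 was at 0.547 CPM in female L345 C, which is 14 counts, with the next at 0.148 CPM, a ratio of 0.729. Without female L345 D, the Isl2 and Pou4f1 log2 fold changes between levels kept their direction and neither passed the test.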

How the results depend on the processing

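Runx3 was too low to test at this depth. Over all genes, 356 were called for level (222 higher, 134 lower). Upper-quartile scaling called 545 (412 and 133), DESeq2 1519 (953 and 566), limma-voom 3268 (1502 and 1766), no filter 841, the term for the deposit 125, leaving out female L6S1 B and C 137, and GC and length offsets 871 (435 and 436). Leaving out 1 library gave 80 (without female L345 B) to 4031 (without female L6S1 A). RLE scaling gave 394, a filter of 1 CPM in 6 libraries 370 and the first deposit alone 499. Scalings moved the median of all genes by at most 0.0681. The number of members called was 1, but 2 under limma-voom and in the first deposit alone, 0 with the deposit term or without female L6S1 B and C, and 0 to 1 with 1 library left out. In males 0 were called, but 1 (Runx1) by DESeq2, by limma-voom, with no filter, in the first deposit alone and without female L6S1 B and C, and 0 to 1 with 1 library left out. In females 0 were called, and 0 to 1 with 1 library left out (Runx1 without female L6S1 A, adjusted p = 0.0136).

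Of 15 same-lettered pairs 7 had a correlation of deviations over 0.1 (r = -0.20 to 0.31, median 0.093), against 5 of 39 pairs with different letters (median -0.012). Not every same-lettered pair passed 0.1, and 5 of 12 libraries matched their own letter best, so the letters were not taken to pair the libraries. A replicate block on the letters called 1985 genes (960 higher, 1025 lower; 352 of the 356 among them) and 1 member, Runx1, at -0.88 ± 0.15 (adjusted p = 0.0136).

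Direction turned only where no call was made. The interaction of Pou4f1 (-0.10) was 0.15 by limma-voom, 0.014 in the first deposit, 0.14 with the replicate block and -0.25 to 0.058 with 1 library left out. That of Isl1 (-0.15) was 0.12 in the first deposit and 0.073 without female L6S1 B and C. That of Tlx3 (-0.33) was 0.54 in the first deposit, 0.54 with offsets and -0.55 to 0.050 with 1 library left out. That of Prdm12 (0.29) was -0.37 in the first deposit and -0.27 without female L6S1 B and C. The level difference of Isl1 (0.01) was -0.094 with offsets and -0.049 to 0.072 with 1 library left out. The sex difference of Runx1 (0.01) was -0.043 with offsets and -0.070 to 0.12 with 1 library left out, that of Tlx3 (-0.27) was 0.15 with offsets, and without female L6S1 B and C those of Isl1 and Prdm12 were 0.027 and -0.052. The causes were not tested.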
